A study of Caenorhabditis elegans with 12 samples.

Results

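Long intergenic noncoding RNA genes of *C. elegans* carry the name linc followed by a number, and 170 of the 46926 features in the processed table had such a name. The 78 described here were those with a count above 0 in at least 6 of the 12 libraries. Of the other linc genes, 31 had no count in any library and 61 had counts in 1 to 5 libraries. The rule used no difference between the diets. RNA was sequenced from whole worms of the wild-type strain N2, and every worm carried the same genotype. Worms of 6 libraries were fed the Δlpp mutant of *E. coli*, which lacks the major outer membrane lipoprotein Lpp, and worms of 6 libraries were fed BW25113, the wild-type *E. coli* strain set against it. Libraries were made from total RNA depleted of rRNA. The sources used here do not say how old the worms were when collected, nor whether the libraries came from separate cultures, so p-values measure the spread between these libraries, which may be technical.

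Long intergenic noncoding RNAs are transcripts that lie between protein-coding genes and have no evident open reading frame. Many are made at low level, in few cells or at 1 stage, and for most linc genes of the worm no function is known. Those with a known role act in different ways, for example by binding proteins, by affecting the transcription of a neighbouring gene, or by serving as a decoy. In RNA from whole worms, fewer cells of a type and less RNA per cell cannot be told apart.

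The libraries held 21146884 to 23563531 counts with Δlpp (median 22063742) and 20254430 to 24442423 with BW25113 (median 21936408). The rRNA genes still held 0.408% to 0.567% of counts with Δlpp and 1.24% to 2.69% with BW25113. TMM, the scaling that sets most genes equal between libraries, gave factors of 1.08 to 1.27 with Δlpp and 0.794 to 0.988 with BW25113. The choice of scaling therefore moved every fold change below: over the 15266 features tested, the log2 fold change had a median of 0.05 with TMM and 0.50 with library size alone. Markers of sperm were far lower with Δlpp, with a summed CPM (the count divided by the library's TMM-scaled size) of 10.025 to 13.2, against 139 to 205 with BW25113. All 8 tested of 10 listed sperm genes were called lower, and none of the 10 was without counts. Of the 10 oocyte markers 1 was called higher, with a summed CPM of 6005 to 8353 with Δlpp and 3095 to 6301 with BW25113. Of the 7 molt markers 3 were called lower, with 722 to 925 CPM with Δlpp and 1040 to 2101 CPM with BW25113. Of the 5 neuron markers 1 was called higher, with 402 to 495 CPM with Δlpp and 286 to 369 CPM with BW25113. Of the 6 tested embryo markers 2 were called higher, with 90.0 to 121 CPM with Δlpp and 54.7 to 94.1 CPM with BW25113 over the 9 listed. Of the 6 yolk genes 3 were called lower. The others, vit-2, vit-5 and vit-6, were not called, with log2 fold changes of 0.82, 0.55 and 0.25. The yolk sum was 38550 to 72758 CPM with Δlpp and 30964 to 67746 CPM with BW25113. Only mab-3 of the 6 male markers was tested, and it was called lower. With no filter on low counts, pkd-2, lov-1, cwp-1 and cwp-2 had log2 fold changes of 1.05, 2.48, 1.57 and 1.54, and cwp-3 of -1.37. Each had at most 9 counts in a library and an edgeR adjusted p over 0.05. None of the 4 epidermis markers was called. Body wall muscle (2 of 4 called lower) had 2281 to 3058 CPM with Δlpp and 5789 to 9452 CPM with BW25113, and intestine (1 of 4 called lower) had 569 to 750 CPM with Δlpp and 1426 to 1731 CPM with BW25113. Most of the intestine sum was act-5, with 513 to 686 CPM with Δlpp and 1338 to 1644 CPM with BW25113. The other intestine markers, ges-1, elt-2 and elt-7, were not called, with log2 fold changes of -0.94, -0.33 and 0.005. The part of these differences in the linc results was not tested.

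The linc genes were a small and uneven group. Of the 78 genes, 49 had no library above 10 counts, and 9 reached a mean of 1 CPM over the 12 libraries. The median of their mean levels was 0.123 CPM, against 12.1 CPM for all tested features. The 4 genes with the most counts, linc-22, linc-15, linc-5 and linc-8, held 58.8% of the counts on the 78, and the first 10 held 78.8%. The genes were short, with a median of 522 exon bases (157 to 4071), against 1359 for the tested protein-coding genes. 41 of the 78 had 2 exons and 18 had a single exon. In the Ensembl annotation of WBcel235, 20 lay on chromosome II, 17 on X, 13 on III, 12 on I, and 8 each on IV and V.

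Intergenic was a loose description for many of them. The span of 33 overlapped another annotated gene, that of 18 overlapped a protein-coding gene, and the exons of 26 shared bases with exons of another gene, 15 of these on the same strand. The nearest protein-coding gene lay within 2000 bases for 67 of the 78. The sources do not state whether counting used strand, so reads of a linc gene and of a gene that overlaps it cannot be told apart, and the genes with such an overlap are given as uncertain. The pairs linc-17 and linc-68, linc-19 and linc-45, and linc-21 and linc-41 were neighbours of each other on the same strand, 321 to 704 bases apart.

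More of all 170 linc genes were detected with the Δlpp diet, but for the 78 the groups overlapped. Of the 170, a library had 74 to 91 with a count above 0 with Δlpp (median 87), and 63 to 71 with BW25113 (median 69). The lowest Δlpp library lay above the highest BW25113 library, at like total counts. Of the 78, a library had 58 to 69 with Δlpp (median 65.5) and 55 to 63 with BW25113 (median 61.5), so these ranges overlapped. Detection over all features is not given here, so neither these numbers nor those by gene below can be set against it. After TMM scaling the Δlpp libraries were the deeper, as 3 counts stood for 0.111 to 0.121 CPM there and for 0.138 to 0.185 CPM with BW25113, and the part of this in detection was not tested. The 78 genes took 0.00565% to 0.00828% of all counts with Δlpp (median 0.00767%) and 0.00422% to 0.00686% with BW25113 (median 0.00562%). Those ranges overlapped. After TMM scaling the summed level was 52.3 to 71.7 CPM with Δlpp and 52.7 to 70.6 CPM with BW25113, so that the groups covered nearly the same range. By gene, 27 were detected in more Δlpp than BW25113 libraries, 13 in fewer, and 38 in equal numbers. In all, 46 had counts in all 6 Δlpp libraries and 36 in all 6 BW25113 libraries.

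**Figure D1:**
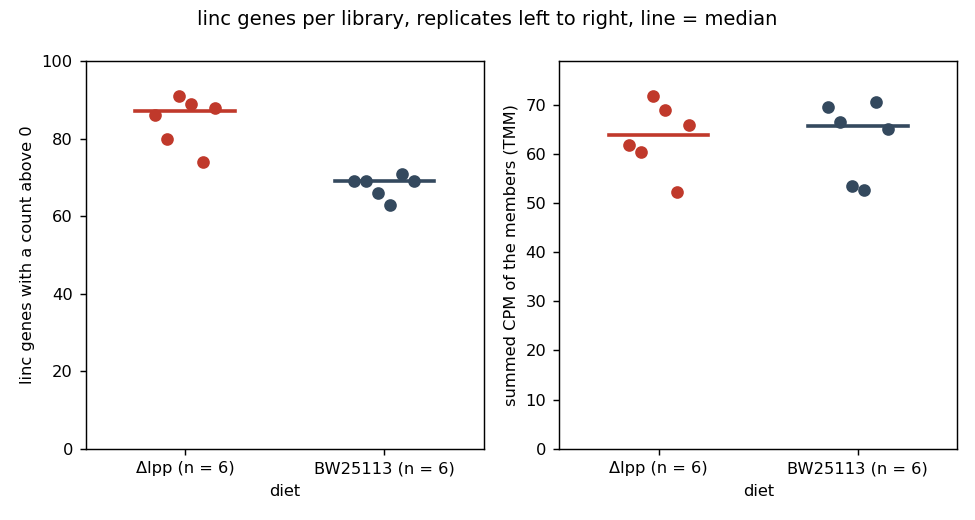
Each point is 1 library, with Δlpp on the left and BW25113 on the right of each panel and a line at the median. The left axis counts the linc genes, of all 170, with a count above 0 (74 to 91 with Δlpp and 63 to 71 with BW25113). The right axis gives the summed CPM of the 78 genes after TMM scaling, where the groups overlap.

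At the edge of the detection rule the counts were low. The 10 genes found in exactly 6 libraries had 0 to 7 counts per library and sums of 3 to 23 over the 12 libraries. The 9 found in exactly 5 libraries, which were left out, had 0 to 9 counts per library and sums of 6 to 29. A count of 0 in 1 library allows up to 3 counts, the CPM of which was given above.

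Which linc genes were most abundant depended on how length was taken into account. By CPM per kilobase of annotated exon, linc-15 led with 33.9, followed by linc-5 with 15.5, linc-1 with 5.19 and linc-8 with 4.90. By the deposited TPM (a level scaled by transcript length and library size), linc-4 led with a mean of 39.8, followed by linc-15 with 24.1, linc-5 with 23.2, linc-6 with 8.98, linc-14 with 8.52 and linc-1 with 7.52. The first place of linc-4 rested on 13 to 23 counts per library with Δlpp and 7 to 23 with BW25113, on 216 exon bases. The place of linc-6 rested on 0 to 2 counts with Δlpp and 0 to 3 with BW25113, on 174 bases. Neither was thus among the genes with the most reads.

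The deposited counts and TPM of a gene together give the length by which the count was divided. For linc-4 this length was 13.0 bases (11.1 to 18.1 over the libraries), and for linc-6 it was 4.58 bases. Among single-transcript protein-coding genes, this length was shorter than the annotated one by 249.5 to 278.5 bases, depending on the library. For linc-15 it was 327 bases against 338 annotated, and for linc-22 it was 3810 against 4071. For linc-30, with 2375 annotated bases, it ranged between 21.3 and 2119 bases over the libraries. The ratio of TPM to CPM per kilobase had a median of 6.22 over the 13 genes under 300 bases, and of 0.853 over the 20 genes of 1000 bases or more. TPM of short linc genes is therefore not used here to compare levels between genes.

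**Figure D2:**
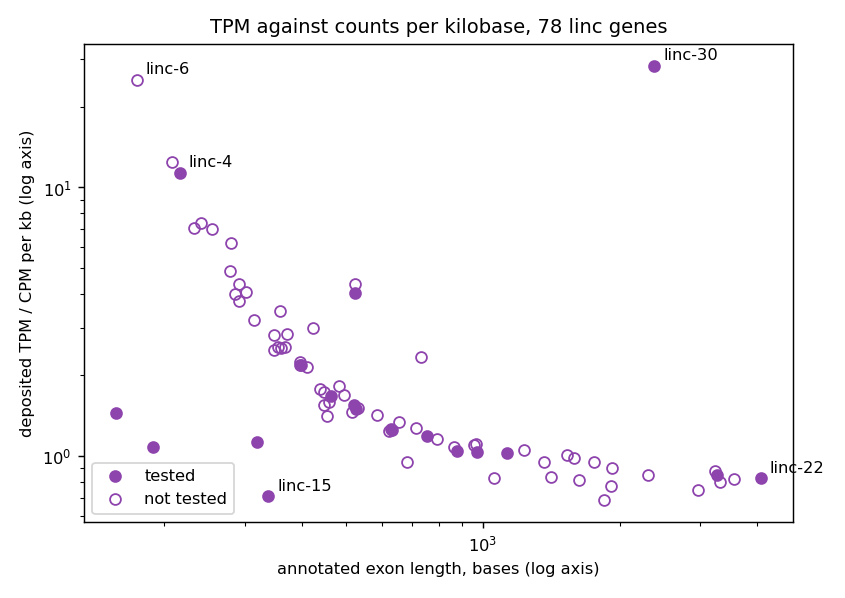
Each point is 1 of the 78 linc genes, filled where the gene was tested, with its annotated exon length on the x axis and the mean deposited TPM divided by the CPM per kilobase on the y axis, both on log axes. The ratio is high for most genes under 300 bases (linc-6 and linc-4 are named) but not for linc-1 (1.45), the shortest, and it is highest for linc-30 (28.4) at 2375 bases.

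Few linc genes had enough counts to be tested, and among these most did not differ by the size asked of a call. Of the 78, 19 passed the filter on low counts of edgeR and 59 did not. A call was an adjusted p under 0.05 in edgeR's quasi-likelihood test, adjusted by Benjamini-Hochberg over all tested features, together with a log2 fold change over 1 either way. By that rule 2 of the 19 (10.5%) were called, against 27.7% of all features tested. linc-91 was called higher (12.1% of all features were) and linc-7 was called lower (15.6% of all features were). By adjusted p alone, 5 were higher and 2 lower, against 65.2% of all features past that threshold in either direction (32.9% higher and 32.3% lower). The log2 fold change was above 0 for 12 and below 0 for 7, with a median of 0.09, against 0.05 over all tested features. The groups did not overlap in CPM for 3 of the 19, linc-22 above and linc-7 and linc-15 below, against 41.5% of all tested features. With library size alone, 5 were called higher and 1 was called lower (31.6% together). Over all 15266 features, 3720 were then called higher and 1747 lower (35.8% together). The median was 0.54 against 0.50 for all features, and linc-1, linc-4, linc-8, linc-9 and linc-34 changed from below 0 to above 0.

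linc-7 (WBGene00219609) fell with the Δlpp diet. It is a single-exon gene of 1130 bases on the plus strand of chromosome X (16002599 to 16003728), inside the span of C09G1.4 on the opposite strand, with no exon in common. Its level was 1.21, 1.94 and 3.08 CPM with Δlpp (lowest, median and highest of 6), against 5.12, 5.79 and 8.86 CPM with BW25113. Every Δlpp library lay below every BW25113 library. The log2 fold change was -1.55 (SE 0.22, adjusted p = 6.14e-06), and it was -1.69 to -1.40 when each library was left out in turn. On log2(TPM + 1) the difference was -0.78 and on log2(TPM + 0.1) it was -0.99, both under the size asked of a call. C09G1.4, the gene around it, had a log2 fold change of 0.04 (SE 0.12, adjusted p = 0.79).

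linc-15 (WBGene00219571) also fell, by slightly less than the size asked of a call. It has 2 exons and 338 exon bases on the minus strand of chromosome X (11991484 to 11991933), 192 bases from C49F5.6. It had 4.83, 8.24 and 9.42 CPM with Δlpp (lowest, median and highest), against 12.2, 16.1 and 18.0 CPM with BW25113. These groups did not overlap. The log2 fold change was -0.96 (SE 0.16, adjusted p = 3.51e-05), and it passed -1 without Δlpp replicate 3 (-1.01), without Δlpp replicate 4 (-1.02) or without BW25113 replicate 3 (-1.02). C49F5.6 moved the other way, with a log2 fold change of 0.62 (SE 0.14, adjusted p = 0.000714).

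linc-22 (WBGene00219699), the linc gene with the most counts, rose with Δlpp. Its 5 exons cover 4071 bases on the plus strand of chromosome X (9069138 to 9073735), and 157 of these bases are shared with F47E1.19, a small RNA gene on the same strand. It had 14.1, 16.7 and 19.4 CPM with Δlpp (lowest, median and highest), against 7.89, 9.68 and 10.9 CPM with BW25113, and the groups did not overlap. The log2 fold change was 0.80 (SE 0.12, adjusted p = 8.32e-06), under the size asked of a call, and 1.25 with library size alone, past it. F47E1.4, the nearest protein-coding gene at 2476 bases on the same strand, was called higher with a log2 fold change of 1.44 (SE 0.24, adjusted p = 3.66e-05).

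linc-5 (WBGene00219559) rose by a smaller amount. It has 527 exon bases on the plus strand of chromosome X (14018610 to 14019376), of which 467 are shared with the noncoding gene C04C11.23 on the same strand, so its reads cannot be assigned to either alone. It had 7.40, 9.26 and 11.4 CPM with Δlpp (lowest, median and highest), against 5.69, 6.72 and 8.35 CPM with BW25113. The groups overlapped. The log2 fold change was 0.43 (SE 0.14, adjusted p = 0.0107). C04C11.1, at 1214 bases on the same strand, was called higher with a log2 fold change of 1.33 (SE 0.16, adjusted p = 1.22e-06).

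linc-91 (WBGene00219746) was the called gene that rose, at a far lower level. It is a single exon of 3257 bases on the plus strand of chromosome I (4699610 to 4702866), 1035 bases from chd-7, which encodes a chromatin remodelling enzyme. It had 10, 14 and 23 counts with Δlpp (lowest, median and highest), against 3, 4.5 and 11 counts with BW25113. The filter asks for about 10 counts in 6 libraries, so linc-91 was tested through its Δlpp libraries, where it is high. Its place among the genes that passed the filter, and so its call among them, was in part fixed by the filter. The levels were 0.374 to 0.855 CPM with Δlpp and 0.159 to 0.507 CPM with BW25113, so the groups overlapped. The log2 fold change was 1.05 (SE 0.33, adjusted p = 0.0101). With no filter linc-91 was also called, at 1.03 (SE 0.36, adjusted p = 0.0179). With the filter, the call was lost when any of 4 libraries was left out. The log2 fold change was then 0.92 without Δlpp replicate 1 and 0.96 without Δlpp replicate 3. It was 0.93 without BW25113 replicate 2 and 0.97 without BW25113 replicate 3.

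linc-24 and linc-17 passed the adjusted p but not the fold change. linc-24 had 0.898, 1.45 and 1.89 CPM with Δlpp (lowest, median and highest), against 0.469, 0.889 and 1.29 CPM with BW25113, a log2 fold change of 0.70 (SE 0.25, adjusted p = 0.0190). linc-17 had 0.449, 0.704 and 1.001 CPM with Δlpp, against 0.369, 0.422 and 0.584 CPM with BW25113, a log2 fold change of 0.66 (SE 0.27, adjusted p = 0.0391). The groups overlapped for both genes. With 12 to 27 counts with Δlpp and 7 to 11 with BW25113, linc-17 also passed the filter mainly through its Δlpp libraries. Without Δlpp replicate 4 the adjusted p was 0.0511 for linc-24 and 0.0991 for linc-17, and with no filter it was 0.0731 for linc-17. The other 12 tested genes lay between -0.21 (linc-4) and 0.63 (linc-56) and passed neither threshold. Among them was linc-8, the fourth by counts, with 3.34, 4.33 and 5.42 CPM with Δlpp against 2.97, 4.34 and 5.88 CPM with BW25113.

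**Figure D3:**
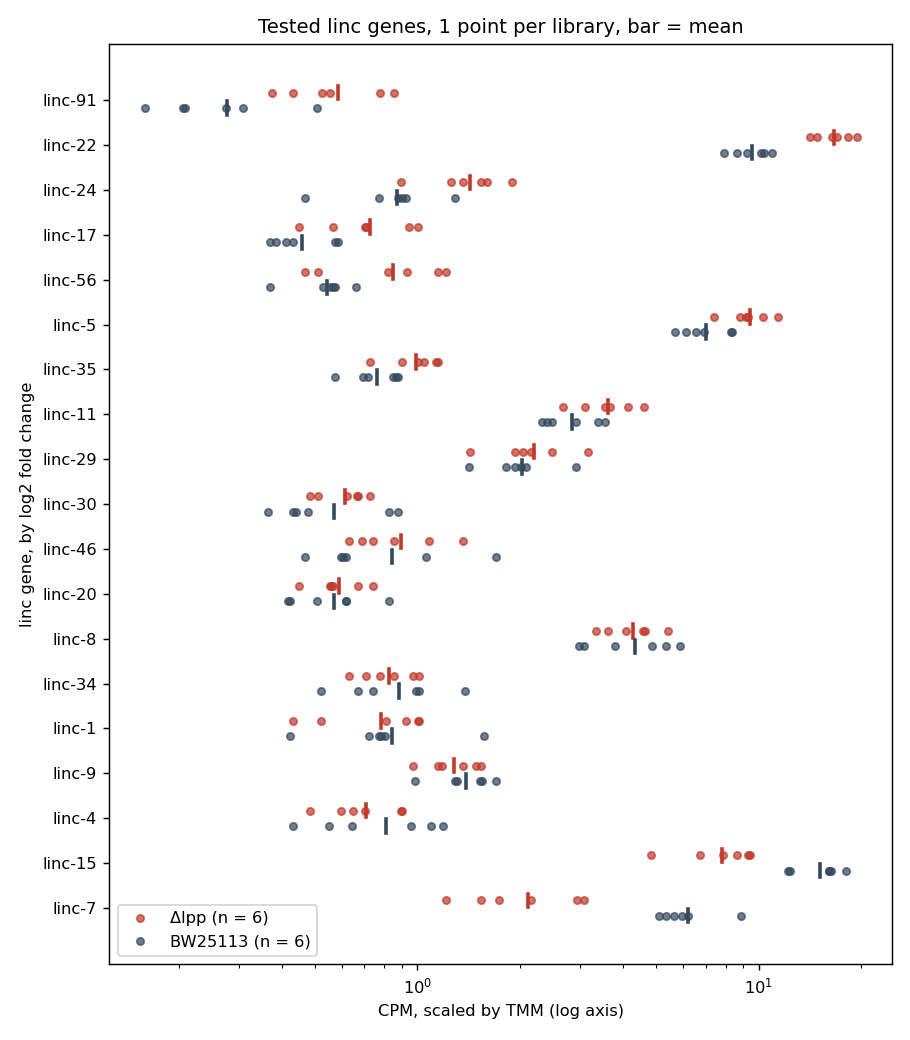
Each point is the CPM of 1 library after TMM scaling on a log axis, for the 19 tested linc genes in order of log2 fold change, with Δlpp above BW25113 in each row and a bar at the mean of 6. linc-22 lies wholly to the right with Δlpp, linc-15 and linc-7 lie wholly to the left, and the other rows overlap.

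The size of these differences moved with the scaling, and for the shortest gene with the unit. With library size alone, every tested linc gene shifted upward by about the shift of all features. On log2(TPM + 1), linc-1 had a difference of 1.42 (SE 0.31, limma adjusted p = 0.000655), whereas in counts its log2 fold change was -0.12 (SE 0.30, edgeR adjusted p = 0.748). Its counts were 11, 22.5 and 27 with Δlpp (lowest, median and highest), against 8, 14 and 34 with BW25113, and it has 157 exon bases. The length by which its count was divided ranged between 19.4 and 155.9 bases over the libraries (median 139). The part of this in its TPM difference was not tested. On the same log2(TPM + 1) scale linc-91, listed at 0.12 to 0.27 TPM with Δlpp and 0.03 to 0.11 TPM with BW25113, had a difference of 0.15, since the pseudocount of 1 exceeds its values.

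**Figure D4:**
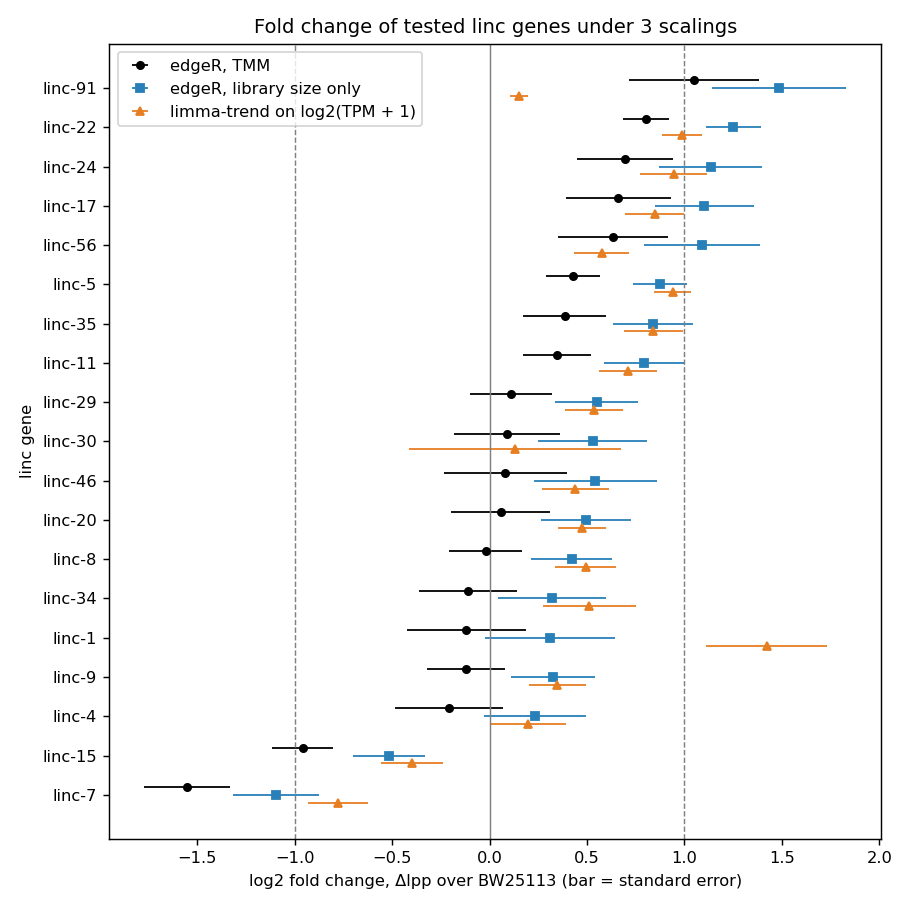
Each marker is the log2 fold change of Δlpp over BW25113 for 1 of the 19 tested linc genes, with its standard error as a bar, from edgeR with TMM (circles), edgeR with library size only (squares) and limma on log2(TPM + 1) (triangles). Dashed lines mark the fold change asked of a call, and linc-1 is past it on the TPM scale only.

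With no filter on low counts all 78 genes could be tested, and the balance of higher and lower calls depended on the scaling. With TMM, of the 78, 6 were called higher and 11 lower (21.8% together), against 26.7% of the 21506 features tested in that fit (12.1% higher and 14.7% lower). The groups did not overlap for 6 of the 78, against 32.4% of all features. Of the 17 called genes, 15 had been too low to test with the filter, and 7 shared exon bases with another gene. The median log2 fold change was 0.15, against 0.11 over all features tested. These calls rest on few counts, and 12 of the 17 also held with library size alone. That scaling called 11 other linc genes and so turned the balance round, with 17 higher and 6 lower. The share over all features in that fit is not given here. With the filter, the balance over all features turned as well, from 1849 higher and 2379 lower with TMM to 3720 higher and 1747 lower. Among the 45 genes with no overlapping gene, TMM gave 4 higher and 4 lower. In the next paragraphs the values of sparse linc genes are from the fit with no filter. Those of the protein-coding genes beside them are from the fit with the filter.

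Of the 10 sparse linc genes called lower, linc-18, linc-21, linc-36, linc-48 and linc-89 had a median of 0 counts with Δlpp, as did linc-40. linc-18 had 0 counts in all 6 Δlpp libraries, against 1, 1 and 4 counts with BW25113 (lowest, median and highest), at least 5.06-fold lower against a floor of 3 counts over the group. The 95% exact interval of its ratio, which also covers the counting error of the BW25113 sum, began at 3.46-fold lower. With no count in a Δlpp library it could be among the 78 only with a count in every BW25113 library, and its pattern was in part fixed by the detection rule. It shares 72 exon bases with sdz-14 on the opposite strand, whose log2 fold change was 0.71 (SE 0.23, adjusted p = 0.0111). linc-36 had 0, 0 and 3 counts with Δlpp, against 3, 4 and 7 with BW25113, a log2 fold change of -2.77 (SE 0.70, adjusted p = 0.00169). linc-18 and linc-36 did not overlap between the groups in CPM, nor did linc-48, which had 1 count in all with Δlpp and 14 with BW25113. In counts the highest Δlpp library equalled the lowest BW25113 library for linc-36 (3 each) and for linc-48 (1 each), so these parted only after scaling. The ratio of linc-48 was 0.0518 (95% exact interval 0.00123 to 0.340, for counting error only). linc-48 and linc-89 likewise had counts in 1 Δlpp library each and entered through BW25113. linc-21, linc-36 and linc-40 had counts in 2 Δlpp libraries each, and in 6, 6 and 5 BW25113 libraries, so they also entered mainly through BW25113. The rule thus in part fixed the pattern of each of these genes too.

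linc-89 had 1 count in all with Δlpp and 22 with BW25113, a ratio of 0.0330 (95% exact interval 0.000799 to 0.204). It shares 869 exon bases on the same strand with C04C3.7, whose rounded counts were 0 in every library. linc-21 had 0, 0 and 4 counts with Δlpp (lowest, median and highest), against 2, 5.5 and 11 with BW25113, a log2 fold change of -2.95 (SE 0.68, adjusted p = 0.000758). Its groups overlapped. linc-41, 321 bases away on the same strand, had 1 to 3 counts with Δlpp and 0 to 2 with BW25113 and was not called. The 5 other genes called lower, linc-40, linc-42, linc-49, linc-61 and linc-82, had log2 fold changes of -2.37 to -1.14, and each overlapped between the groups. None of the 5 was called with library size alone, linc-40 and linc-49 were not called with the replicate number as a block, linc-40 was not called with DESeq2, and linc-49 and linc-82 were not called without BW25113 replicate 1.

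Of the sparse genes that rose, linc-37 (WBGene00219709) had 4, 9 and 21 counts with Δlpp (lowest, median and highest), against 0, 0.5 and 4 with BW25113, a log2 fold change of 2.66 (SE 0.64, adjusted p = 0.00112). The groups overlapped in CPM. linc-37 had counts in 6 Δlpp libraries but in 3 BW25113 libraries, so it entered the 78 through Δlpp, and its pattern was in part fixed by the detection rule. It lies on chromosome III (832984 to 833347, plus strand) and shares 78 exon bases on the same strand with zip-2, which encodes a bZIP transcription factor of the pathogen response. zip-2 itself had a log2 fold change of -0.24 (SE 0.10, adjusted p = 0.0478), opposite in sign to linc-37.

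linc-73 (WBGene00219664) lies 625 bases from unc-104 on the same strand of chromosome II (6993992 to 6994362). unc-104 encodes the kinesin motor that carries synaptic vesicle precursors along axons. linc-73 had 1, 3.5 and 6 counts with Δlpp (lowest, median and highest), against 0, 0 and 1 with BW25113. All 6 Δlpp libraries and 1 BW25113 library had a count, and the ratio of the levels was 15.95 (95% exact interval 2.58 to 658). It was among the 78 through its Δlpp libraries, so that pattern was in part fixed by the detection rule. unc-104 had 14.5, 23.1 and 24.98 CPM with Δlpp, against 12.2, 13.6 and 20.2 CPM with BW25113, a log2 fold change of 0.56 (SE 0.15, adjusted p = 0.00330) that was under the size asked of a call.

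linc-84 was the sparse gene called higher with the most counts, 8, 16.5 and 24 with Δlpp (lowest, median and highest), against 3, 5.5 and 7 with BW25113. Its log2 fold change was 1.21 (SE 0.37, adjusted p = 0.00749). In CPM its groups overlapped, with 0.314 to 0.969 with Δlpp and 0.156 to 0.361 with BW25113. The 2 remaining calls were nearer the threshold. linc-103 had 27 counts in all with Δlpp against 6 with BW25113 (log2 fold change 1.58 after scaling, adjusted p = 0.0463). For linc-138 these were 25 against 5 (log2 fold change 1.72 after scaling, adjusted p = 0.04996). Neither was called with DESeq2 or with the replicate number as a block. linc-103 had counts in 6 Δlpp and 4 BW25113 libraries, so it too met the detection rule through Δlpp. linc-138 shares 114 exon bases on the same strand with klf-3, a Krüppel-like transcription factor gene with a role in fat storage, whose log2 fold change was 0.12 (SE 0.12, adjusted p = 0.396).

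**Figure D5:**
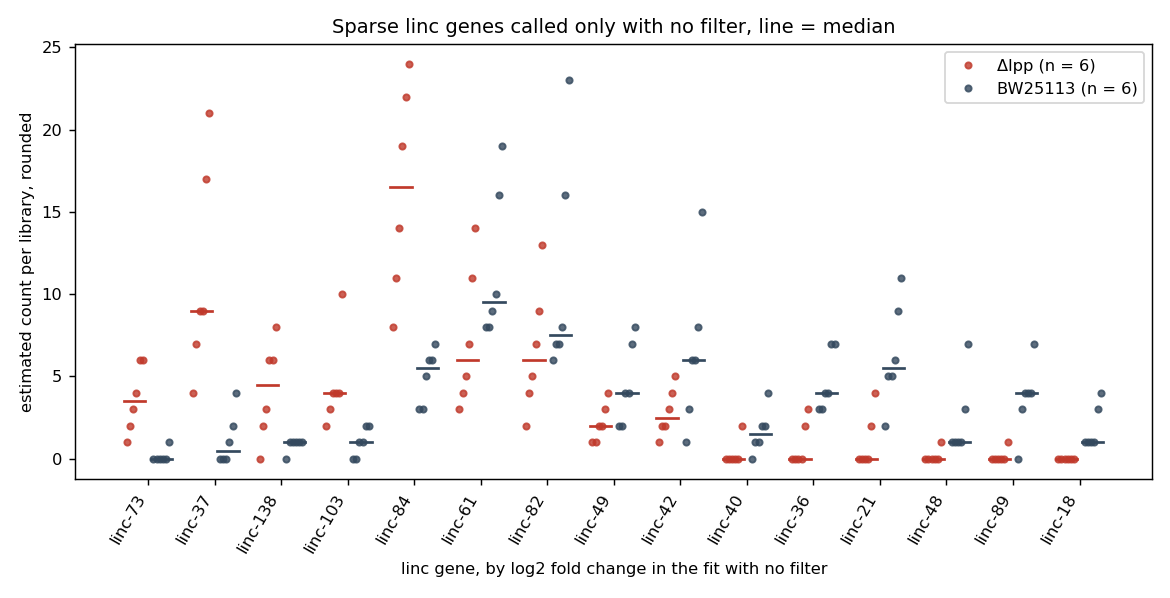
Each point is the rounded estimated count of 1 library for the 15 linc genes called only when no filter was applied, with Δlpp to the left of BW25113 for each gene and a line at the median. linc-73, linc-37, linc-138, linc-103 and linc-84 are higher with Δlpp, and linc-18 at the right end is at 0 in every Δlpp library.

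The linc genes were then set beside their nearest protein-coding genes. With the filter, both genes of 14 pairs were tested, and in none were both called, against 785 of 12224 pairs (6.42%) called the same way when each tested protein-coding gene was set beside its own nearest. In 2 pairs only the linc gene was called and in 6 only the neighbour, against 1967 and 1885 of the 12224 pairs. With 14 pairs, none cannot be told from 6.42%. The fold changes had a Pearson r of 0.26 and a Spearman rho of 0.41 across the 14 pairs, which share the same libraries and are not independent. With no filter, 3 of 73 pairs (4.11%) were called the same way, 1 higher and 2 lower, and 1 was called in opposite directions. Protein-coding pairs were counted with the filter only, where 379 of the 12224 were called in opposite directions.

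These pairs were called with no filter, but the neighbours' values here are from the fit with the filter. The pair called higher was linc-84 with F55H12.7, which lies 396 bases away on the other strand and had a log2 fold change of 1.78 (SE 0.38, adjusted p = 0.000506). The pairs called lower were linc-42 with R10F2.6, 38 bases away on the other strand (-1.96, SE 0.21, adjusted p = 2.03e-07), and linc-40 with Y82E9BL.18 (-1.09, SE 0.28, adjusted p = 0.00248). linc-40 and Y82E9BL.18 share 277 exon bases on the same strand, so that pair may count the same reads. In the opposite pair, linc-49 was called lower while pho-4, an acid phosphatase gene that shares 86 exon bases with it on the other strand, was called higher (1.58, SE 0.18, adjusted p = 3.97e-07). With library size alone linc-40, linc-42 and linc-49 were not called (adjusted p of 0.0690, 0.0688 and 0.0865), so of these 4 linc genes only linc-84 kept its call. Both linc-40 and linc-49 also lost their call with the block (0.0736 and 0.0701).

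The 4 long noncoding RNAs outside the linc names that were examined, tts-1, tts-2, rncs-1 and lep-5, were all called. tts-1, which is abundant in long-lived worms and was found on ribosomes there, had 1691, 2727 and 3405 CPM with Δlpp (lowest, median and highest), against 153, 260 and 302 CPM with BW25113. Its log2 fold change was 3.46 (SE 0.18, adjusted p = 9.07e-12), and it took 0.183% to 0.398% of all counts with Δlpp and 0.0127% to 0.0272% with BW25113, more than the 78 linc genes together in every library. tts-2 had 133 to 223 CPM with Δlpp and 42.6 to 77.2 CPM with BW25113, a log2 fold change of 1.60 (SE 0.14, adjusted p = 1.39e-08). rncs-1, a structured RNA that inhibits Dicer, had 5.84 to 11.9 CPM with Δlpp and 2.77 to 5.88 CPM with BW25113, a log2 fold change of 1.29 (SE 0.21, adjusted p = 3.19e-05), with overlapping groups.

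lep-5 fell. It is annotated as a lincRNA and acts in the timing of the change from juvenile to adult. It had 53.2, 61.1 and 81.2 CPM with Δlpp (lowest, median and highest), against 244, 334 and 364 CPM with BW25113, a log2 fold change of -2.36 (SE 0.12, adjusted p = 6.55e-12). Its counts were 0.89 to 6.19 times the summed counts of the 78 linc genes, depending on the library. Over all 29 tested features annotated as lincRNA, the 19 linc genes among them, 5 were called (17.2%), against 27.5% of tested protein-coding genes and 36.4% of tested ncRNA genes.

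Antisense RNA genes of the anr names and RNA decay genes gave 1 call each. Of 57 anr genes, 21 had counts in at least 6 libraries and 3 were tested, of which anr-45 was called higher (2.45, SE 0.42, adjusted p = 5.02e-05). Without strand, reads of an antisense gene and of its partner cannot be told apart. Of the 26 listed genes of nonsense-mediated decay, the RNA exosome, decapping and exonucleases, 25 were found and tested, and 1 was called. Their median log2 fold change was 0.08, against 0.05 over all features. The called gene was exos-3, an exosome subunit, with 16.4 to 20.97 CPM with Δlpp and 2.34 to 9.64 CPM with BW25113, a log2 fold change of 1.57 (SE 0.22, adjusted p = 8.22e-06).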

How the data were processed

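Per the study's methods, reads were cleaned with Seqtk and mapped with HISAT2, and the authors obtained fragment counts for each gene from StringTie; the submitters' processing notes name the build WBcel235, and versions are not given in the sources used here. The deposited values are estimated counts, not normalized, of which 8.97% are not whole numbers. The study's methods state that TPM was calculated with RNAnorm. The length implied by the deposited counts and TPM differed between libraries, as given above. The sources used here do not say how that length was set. Means of TPM per group in the table were not used. Libraries were grouped by their sample titles, and no pair of libraries was a repeated deposit. Counts were rounded, filtered with filterByExpr (minimum count 10, minimum total 15), scaled by TMM and fitted with edgeR 4.0.16 (quasi-likelihood, robust, no covariate; R 4.3.3). limma 3.58.1 and DESeq2 1.42.0 were alternatives, as were other filters and scalings, the replicate block and each library left out. The procedure was tested on simulated data. Gene positions and names came from Ensembl release 115, in which all 78 names and IDs matched. Intervals on ratios are exact conditional intervals of summed counts at 95% and cover counting error only. They replace a bound per library where a group had 1 to 3 counts.

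The members and lists were chosen with earlier results of these data known. Genes were to be named if called, not overlapping and at a mean of at least 0.5 CPM (linc-7 only), if among the 6 highest by mean TPM, if at the edge of the detection rule (by count range), if long noncoding RNAs with a known role, or if called decay or anr genes. The other linc genes and neighbours with values were chosen after their values were seen. The alternatives that combine no filter with a second change were also chosen after seeing the data. No sequence is printed.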

Additional observations from a re-analysis of the deposited data

Results flagged for a closer look

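4 of 52 groups of 6 libraries tested had a library that stood far from the rest, where chance gives about 1 in 20. linc-1 had 1.568 CPM in BW25113 replicate 1, against 0.4247 to 0.8015 CPM in the other BW25113 libraries, and without that library its log2 fold change was 0.20 in place of -0.12. linc-7 had 8.865 CPM in BW25113 replicate 5, against 5.118 to 6.211 CPM in the others, and its log2 fold change was -1.40 without it. rncs-1 had 5.875 CPM in BW25113 replicate 5, against 2.766 to 3.638 CPM in the others. The share of counts on the 78 linc genes was 0.005654% in Δlpp replicate 5, against 0.007533% to 0.008275% in the other Δlpp libraries.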

How the results depend on the processing

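The number of tested linc genes called higher, 1 with the filter and TMM, was 5 with library size only, 6 with no filter, 0 with at least 10 counts in every library (10 genes tested), 6 on log2(TPM + 0.1) and 5 by adjusted p alone, and 0 to 2 with a library left out. The number called lower, 1, was 11 with no filter, 0 on log2(TPM + 1) and on log2(TPM + 0.1), 2 by adjusted p alone and 0 among genes with no overlapping gene, where linc-7 is left out, and 1 to 2 with a library left out. The median log2 fold change, 0.09, was 0.51 on log2(TPM + 1), 0.70 on log2(TPM + 0.1), 0.54 with library size only and -0.017 to 0.29 with a library left out. With no filter, higher and lower calls were 17 and 6 with library size only (median 0.59), 4 and 10 with DESeq2, 8 and 9 without BW25113 replicate 1 (median 0.32), 4 and 9 with the replicate block, and 4 and 4 among the 45 genes with no overlapping gene (median 0.28). Over all features tested with the filter, higher and lower calls were 1849 and 2379 with TMM (median 0.05), and 3720 and 1747 with library size only (median 0.50). By adjusted p alone, with TMM, they were 5018 and 4931. With no filter and TMM they were 2597 and 3152 (median 0.11). For the other settings the values over all features are not given here, so the linc counts and medians cannot be set against them. The cause of the shifts between settings was not tested. Fewer or more genes enter by construction where the filter or the members change.

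The sign changed with library size only, log2(TPM + 1) and log2(TPM + 0.1) for linc-1 (0.31, 1.42 and 1.66), linc-4 (0.24, 0.20 and 0.20), linc-8 (0.42, 0.49 and 0.59), linc-9 (0.32, 0.35 and 0.42) and linc-34 (0.32, 0.51 and 0.60), for linc-8 also with upper quartile scaling (0.067), at least 10 counts in every library (0.0078) and the replicate block (0.0043), and for linc-30 on log2(TPM + 0.1) (-0.094). With a library left out the fold change crossed 0 for linc-1 (-0.26 to 0.20), linc-8 (-0.12 to 0.11), linc-20 (-0.024 to 0.18), linc-29 (-0.017 to 0.23), linc-30 (-0.018 to 0.29), linc-34 (-0.23 to 0.095) and linc-46 (-0.074 to 0.44).

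Replicate numbers did not pair the libraries: the correlation of same-numbered deviations was -0.17 to 0.33, and only replicate 1 had its own number as best partner. With the replicate block, 1 linc gene was called higher and 1 lower, with a median of 0.13. The share of counts on the 78 genes was 1.37 times as high with Δlpp as with BW25113, 1.22 times for summed TPM and 1.19 times without linc-22. With 49 of the 78 genes under 11 counts in every library, depth limits what can be said of most linc genes.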
